A study of Mus musculus with 9 samples.

Results

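Voltage gated calcium channels are built around a pore forming alpha1 subunit, and the 8 alpha1 genes Cacna1a, Cacna1b, Cacna1c, Cacna1d, Cacna1e, Cacna1g, Cacna1h and Cacna1i were followed here in the hippocampus of mice with less, normal or more of the ATPase inhibitory factor IF1. They were found as the non-control probes whose gene name on the array is one of these symbols, which gave 14 of 39429 probes. Cacna1b and Cacna1e have 1 probe each and the other 6 genes have 2. A probe was kept when every array of some genotype showed it well above background, which held for all 14 alpha1 probes and for 27991 probes in all.

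The mice were male C57BL/6J animals aged 9 months, with 3 IF1-KO, 3 CRL and 3 IF1-TG mice and 1 one-colour Agilent array of total RNA per mouse. IF1-KO mice carry floxed Atpif1, the gene of IF1, together with a Camk2a-driven Cre, so the deletion is limited to excitatory neurons of the forebrain and other hippocampal cells keep the gene. IF1-TG mice carry human ATPIF1 under a tetO promoter, switched on by a tTA transactivator that is itself driven by Camk2a. CRL mice are the controls with normal IF1, and the alleles of the CRL mice used for the arrays are not given in the sources used here. The tissue is a mixture of cells, so fewer cells of a type and less RNA per cell cannot be told apart.

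An alpha1 subunit holds the voltage sensors and the calcium selective pore, and it decides at which voltage a channel opens and which drugs and toxins block it. The L-type genes Cacna1c and Cacna1d couple depolarization of the cell body and dendrites to gene expression. The P/Q-, N- and R-type genes Cacna1a, Cacna1b and Cacna1e make the channels that feed transmitter release at nerve terminals. The T-type genes Cacna1g, Cacna1h and Cacna1i open near the resting potential and shape burst firing.

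Levels are given as the log2 intensity of a probe minus that of the array's 75th percentile, so 0 is the 75th percentile and 1 unit is a doubling of signal. Each probe has its own hybridization strength, so values were compared between genotypes within a probe and never between probes. A probe counted as changed when limma gave a fold change of at least 1.5, which is 0.585 on the log2 scale, and an unadjusted P value below 0.05. Benjamini-Hochberg adjusted values over the 27991 probes are given beside.

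What an alpha1 value reports depends on which piece of the transcript the 60-base probe reads, and the 5 probes below are shown because the results for their genes rest on them or because they differ from a neighbouring probe of the same gene. Positions are on mm9, all on the minus strand, and the sequences run 5′ to 3′. Capitals mark a stop codon that closes a reading frame open through the whole probe. The Cacna1b probe (NM_001042528) lies at chr2:24473205-24473264, the Cacna1c probe (NM_001256002) at chr6:118544079-118544138, the Cacna1d probe (NM_001302637) at chr14:30855259-30855318, the Cacna1g probe (NM_009783) at chr11:94270459-94270518 and the Cacna1h probe (NM_001163691) at chr17:25569818-25569877.
Cacna1b A_55_P2078040: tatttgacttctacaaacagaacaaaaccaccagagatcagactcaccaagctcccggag
Cacna1c A_55_P2014154: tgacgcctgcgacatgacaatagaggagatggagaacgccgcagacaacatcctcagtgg
Cacna1d A_55_P2125376: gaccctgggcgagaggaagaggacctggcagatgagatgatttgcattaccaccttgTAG
Cacna1g A_55_P2132756: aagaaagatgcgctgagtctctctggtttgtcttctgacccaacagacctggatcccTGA
Cacna1h A_55_P1986591: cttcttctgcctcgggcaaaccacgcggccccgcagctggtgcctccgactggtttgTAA

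The genotype labels and the arrays were examined before the alpha1 genes. In the IF1-KO group the Atpif1 signal was 6.43, 5.20 and 5.53 in replicates 1, 2 and 3, against 6.19 to 6.34 in CRL and 6.38 to 6.51 in IF1-TG mice. The array labelled IF1-KO replicate 1 thus showed no reduction of the targeted gene, so results that involve IF1-KO are also given without it where it matters. Between IF1-TG and CRL mice the Atpif1 signal differed by 0.16 ± 0.27 (SE, limma, unadjusted P = 0.567). The transgene is human, and whether this probe of a mouse array reads it was not tested. The IF1-TG arrays had the lowest 75th percentile, 1552 to 1739 intensity units against 1922 to 2690 on the other 6, and 66.7% to 69.5% of their probes were well above background against 71% to 74.9%. Of 3 slides, the first carried only IF1-TG mice (replicates 1 and 2), the second had all genotypes (replicate 3 of IF1-TG, replicates 1 and 2 of CRL and replicate 1 of IF1-KO), and the third carried the other 3 arrays. All 7 excitatory neuron markers were measured, with a summed level of 31 to 31.7 times the 75th percentile on the IF1-KO, 29.6 to 33.1 on the CRL and 31.2 to 36.1 on the IF1-TG arrays. The 5 choroid plexus markers differed most between mice, from 1.94 to 94.6 on the IF1-KO, 2.87 to 116 on the CRL and 4.66 to 176 on the IF1-TG arrays.

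Across the 14 alpha1 probes, 1 passed the thresholds in any comparison, the Cacna1b probe, which was higher in the IF1-TG mice when set against the IF1-KO mice (1.73% of all probes were called in that direction). The calls over all probes in that comparison were 45.7% higher in IF1-TG mice, a share that was 76.7% without a filter on dim probes and 23.4% without IF1-TG replicate 3. Of all 27991 probes, 3.77% passed between IF1-TG and IF1-KO, 4.47% between IF1-TG and CRL and 1.06% between IF1-KO and CRL, so 1, 0 and 0 of 14 alpha1 probes is near the background. No alpha1 probe reached an adjusted P value below 0.05, the lowest being 0.67, 0.511 and 1 in the 3 comparisons. In each comparison 6 of the 14 probes had a 95% confidence interval that lay wholly inside a 1.5-fold change in both directions.

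**Figure D1:**
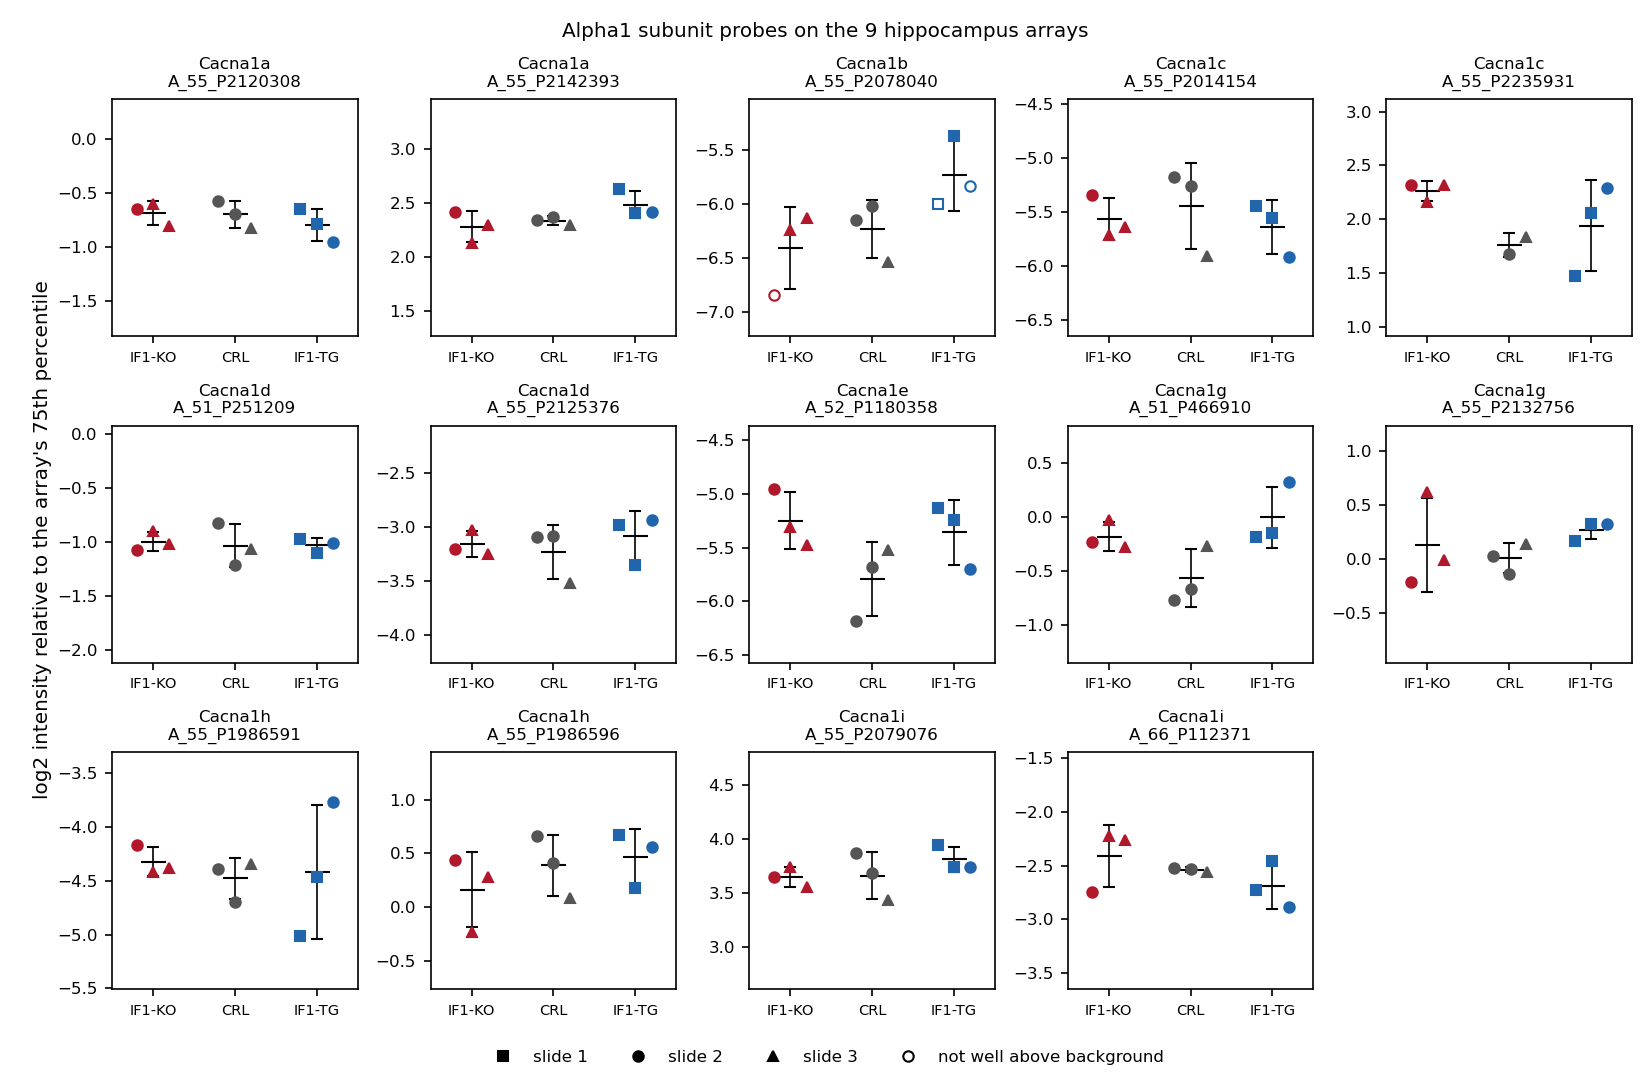
Log2 intensity relative to the array's 75th percentile (y axis, every panel spanning the same number of log2 units) for the 14 alpha1 probes by genotype (x axis). Points are single arrays with the slide as symbol, open points are not well above background, and bars are the mean and SD of the 3 arrays of a genotype (2 CRL arrays for Cacna1c A_55_P2235931). Most genotypes overlap within a probe, and the Cacna1b arrays of the IF1-TG mice lie above those of both other genotypes.

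The N-type gene Cacna1b carried that call. Its log2 level was -6.85, -6.25 and -6.14 on the 3 IF1-KO arrays, -6.15, -6.02 and -6.54 on the CRL arrays and -6.00, -5.37 and -5.83 on the IF1-TG arrays. The 3 IF1-TG arrays lay above all 6 others, with the closest IF1-TG and CRL arrays nearly equal. IF1-TG exceeded IF1-KO by 0.68 ± 0.24 (SE, n = 3 per genotype), a 1.6-fold change (limma, unadjusted P = 0.023, adjusted P = 0.67), with 1 of 3 IF1-TG and 2 of 3 IF1-KO arrays well above background. The difference from CRL was 0.50 ± 0.24 (limma, unadjusted P = 0.0722) and missed both thresholds.

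The Cacna1b signal lay near the limit of detection. The probe was well above background on all 3 CRL arrays, on 2 IF1-KO arrays and on 1 IF1-TG array, so it entered the test through CRL. Before scaling, its intensity was 18.05 to 31.05 units on the IF1-KO, 27.1 to 30.6 on the CRL and 25.4 to 42.1 on the IF1-TG arrays, and in these units the genotypes overlapped. The difference from IF1-KO was 0.46 without the array labelled IF1-KO replicate 1 (limma, unadjusted P = 0.084) and 0.49 without IF1-TG replicate 2 (unadjusted P = 0.0846), and neither passed. It was 0.24 with normexp background correction and quantile normalization (limma, unadjusted P = 0.0643), and 0.64 with slide as a fixed block (unadjusted P = 0.182). Because slide 1 held IF1-TG mice alone, every IF1-TG difference under that block rests on 1 array, IF1-TG replicate 3. Within slide 2 the single IF1-TG array, replicate 3, exceeded the single IF1-KO array, replicate 1, by 1.01. Neither array showed the probe well above background, and that IF1-KO array showed no reduction of Atpif1.

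**Figure D2:**
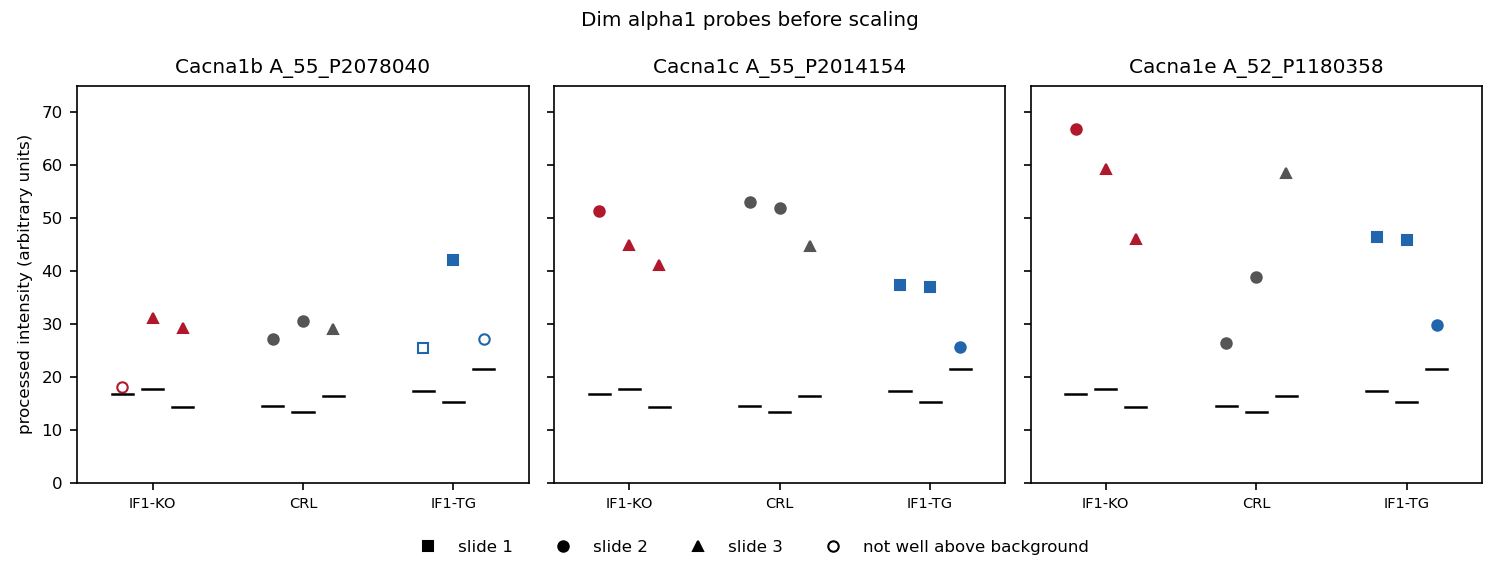
Processed intensity before scaling (y axis, arbitrary units from 0) of the dim probes of Cacna1b, Cacna1c and Cacna1e on each array by genotype (x axis). Symbols give the slide, open symbols are not well above background, and each short line is the lowest intensity of any probe well above background on that array. The Cacna1b points of the 3 genotypes overlap on this scale, and so do those of Cacna1e.

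The P/Q-type gene Cacna1a, which makes the main release channel of many central synapses, was read by a pair of probes. On the brighter one the levels were 2.42, 2.13 and 2.30 in IF1-KO, 2.34, 2.37 and 2.29 in CRL and 2.63, 2.41 and 2.42 in IF1-TG mice. The IF1-TG arrays lay above the CRL arrays without overlap, but one of the IF1-KO arrays fell among them. The differences were 0.20 ± 0.12 for IF1-TG against IF1-KO, 0.15 ± 0.12 against CRL and -0.05 ± 0.12 for IF1-KO against CRL (SE, n = 3), none past the thresholds. The other Cacna1a probe gave -0.11, -0.10 and 0.01, so the pair differed in sign in each comparison. On both probes every 95% interval stayed between -0.40 and 0.48.

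Cacna1e, the R-type gene, was higher on the IF1-KO than on the CRL arrays without reaching the fold threshold. The levels were -4.96, -5.31 and -5.48 in IF1-KO, -6.18, -5.68 and -5.52 in CRL and -5.13, -5.25 and -5.70 in IF1-TG mice. All 3 IF1-KO arrays lay above the 3 CRL arrays, the nearest pair by little, and the IF1-TG arrays overlapped both. Before scaling, the intensity of this dim probe was 45.97 to 66.85 units on the IF1-KO and 26.46 to 58.54 on the CRL arrays, which overlap. The difference between IF1-KO and CRL was 0.54 ± 0.23, a 1.46-fold change (limma, unadjusted P = 0.0431, adjusted P = 1). It was 0.40 without the array labelled IF1-KO replicate 1 (limma, unadjusted P = 0.146), 0.35 without CRL replicate 1 (unadjusted P = 0.156) and 0.25 with normexp and quantile normalization (unadjusted P = 0.067). Within a slide it was 0.97 on slide 2, where IF1-KO replicate 1 was the only IF1-KO array, and 0.13 on slide 3.

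The L-type gene Cacna1c gave unlike results on its 2 probes. On the bright probe the levels were 2.32, 2.16 and 2.32 in IF1-KO, 1.68 and 1.84 in CRL and 1.48, 2.06 and 2.29 in IF1-TG mice, and the spot of CRL replicate 1 was marked as an outlier and left out. The IF1-KO arrays lay above the 2 CRL arrays, and the IF1-TG arrays spread over the whole range. IF1-KO exceeded CRL by 0.51 ± 0.23 (SE, n = 3 and 2, limma, unadjusted P = 0.0638), 0.64 on slide 2 and 0.40 on slide 3. On the dim Cacna1c probe printed above, the same difference was -0.12 ± 0.22. The gene level value, averaged over both Cacna1c probes, was 0.09. Among the alternatives, this second probe passed the thresholds only when slide was a fixed block, where IF1-TG replicate 3 alone stands for its genotype, with differences of -0.70 against IF1-KO (limma, unadjusted P = 0.00889, adjusted P = 0.609) and -0.64 against CRL (unadjusted P = 0.00887, adjusted P = 0.309), compared with -0.07 and -0.19 without the block.

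Cacna1d, the other L-type gene, differed little between genotypes. On its brighter probe the levels were -1.07, -0.89 and -1.02 in IF1-KO, -0.82, -1.21 and -1.06 in CRL and -0.97, -1.11 and -1.01 in IF1-TG mice. The 3 genotypes overlapped fully. The differences were -0.03 (95% interval -0.33 to 0.26) between IF1-TG and IF1-KO, 0.01 (-0.29 to 0.30) between IF1-TG and CRL and 0.04 (-0.26 to 0.33) between IF1-KO and CRL. The probe that ends in the stop codon gave 0.07, 0.14 and 0.07.

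Among the T-type genes, Cacna1g came closest to the thresholds. On the probe A_51_P466910 the levels were -0.24, -0.03 and -0.28 in IF1-KO, -0.77, -0.67 and -0.27 in CRL and -0.18, -0.15 and 0.32 in IF1-TG mice. The IF1-TG arrays lay above all CRL arrays and overlapped the IF1-KO arrays. IF1-TG exceeded CRL by 0.57 ± 0.19, a 1.48-fold change just short of the fold threshold (limma, unadjusted P = 0.0155, adjusted P = 0.511). With slide as a fixed block the difference, which then rests on IF1-TG replicate 3, was 0.98 ± 0.19 and passed (limma, unadjusted P = 0.00179, adjusted P = 0.239), and within slide 2 the single IF1-TG array exceeded the mean of 2 CRL arrays by 1.04. With the same block, IF1-TG also passed against IF1-KO on this probe (0.69, limma, unadjusted P = 0.0149, adjusted P = 0.64), against 0.18 without it.

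The call on this Cacna1g probe moved with single arrays. It passed in 6 of 19 alternatives, with a difference between 0.40 and 0.98 over all of them, and was lowest without IF1-TG replicate 3. The second Cacna1g probe, which ends in the TGA printed above and has the higher mean signal of the pair, gave -0.21, 0.62 and -0.01 in IF1-KO, 0.03, -0.14 and 0.13 in CRL and 0.17, 0.33 and 0.32 in IF1-TG mice. Its IF1-TG arrays also lay above all CRL arrays, by a smaller 0.26 ± 0.21 (limma, unadjusted P = 0.233). Both Cacna1g probes were thus higher in IF1-TG than in CRL mice on every array, and neither passed.

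Thalamic neurons express Cacna1g strongly, so the 7 thalamus markers on the list, 6 of them kept, were set beside it. Their summed level was 3.33 to 4.18 times the 75th percentile on the IF1-KO, 3.45 to 4.53 on the CRL and 2.95 to 8.18 on the IF1-TG arrays. Lef1 and Tcf7l2 of this list were higher in IF1-TG than in CRL mice, by 0.68 and 1.11 (limma, unadjusted P = 0.035 and 0.0194), Tcf7l2 on the dimmer of its probes (0.30 on the brighter). The Tcf7l2 levels on the IF1-TG arrays were -3.15, -1.85 and -3.16, and the difference no longer passed without IF1-TG replicate 2 (0.68) or CRL replicate 3 (0.84). That of Lef1 passed with 5 of the 9 arrays left out in turn, and was 0.48 without IF1-TG replicate 1. Over the 6 kept markers the median difference between IF1-TG and CRL mice was 0.14, with 4 above 0, and on the brightest probes Prkcd and Synpo2 lay the other way, at -0.05 and -0.24. The lowest summed level, 2.95, was on IF1-TG replicate 3, where Cacna1g A_51_P466910 had its highest level, 0.32, and the highest, 8.18, was on IF1-TG replicate 2, where the other Cacna1g probe had its highest level among the IF1-TG arrays, 0.33. Their part in the Cacna1g values was not tested.

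Cacna1h and Cacna1i, the remaining T-type genes, did not pass in any comparison. On the brighter Cacna1h probe the levels were 0.44, -0.23 and 0.28 in IF1-KO, 0.66, 0.42 and 0.09 in CRL and 0.67, 0.18 and 0.56 in IF1-TG mice, with full overlap. The differences were 0.31 ± 0.22, 0.08 ± 0.22 and -0.22 ± 0.22 for IF1-TG against IF1-KO, IF1-TG against CRL and IF1-KO against CRL. The second Cacna1h probe, the one printed above, lies far from the brighter one (chr17:25511235-25511294), and which Cacna1h transcript it reads was not settled. It had the widest spread of the 14 within a genotype, -5.02, -4.46 and -3.77 on the 3 IF1-TG arrays. It passed only with slide as a fixed block, where the highest of these arrays, IF1-TG replicate 3, alone stands for its genotype, 0.70 higher in IF1-TG than in CRL mice (limma, unadjusted P = 0.0424, adjusted P = 0.428), against 0.06 without the block.

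On the brighter Cacna1i probe the levels were 3.65, 3.74 and 3.55 in IF1-KO, 3.87, 3.68 and 3.43 in CRL and 3.95, 3.74 and 3.74 in IF1-TG mice. The genotypes overlapped, with differences of 0.16, 0.15 and -0.01, each ± 0.14. The other Cacna1i probe gave -0.28 ± 0.17, -0.15 ± 0.17 and 0.13 ± 0.17, the opposite signs in all 3 comparisons.

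**Figure D3:**
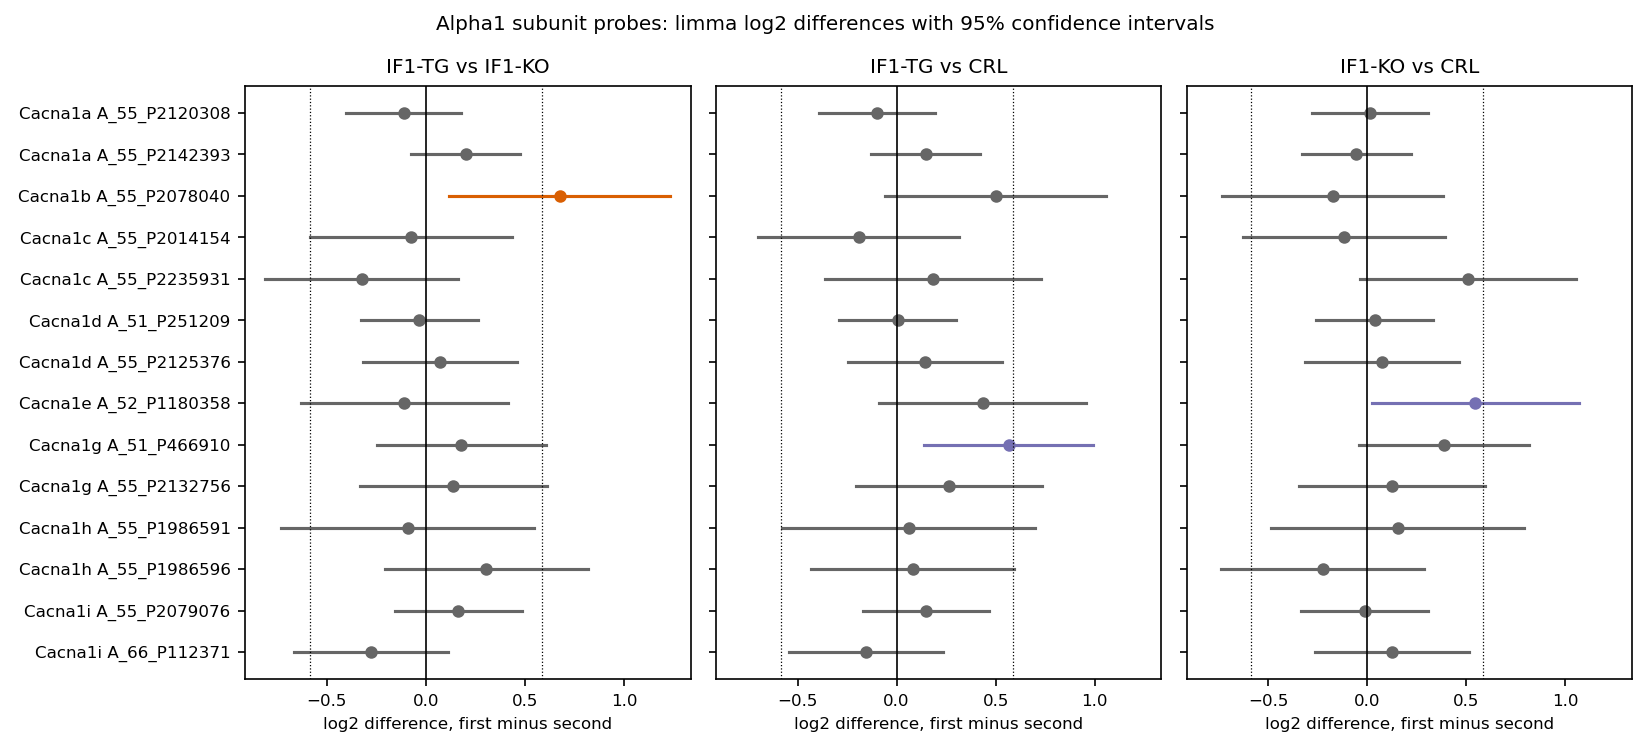
Log2 difference (x axis) with its limma 95% confidence interval for each alpha1 probe (y axis) in the 3 comparisons, first genotype minus second. Dotted lines are the 1.5-fold threshold, orange is past both thresholds and purple has an unadjusted P value below 0.05 with a smaller fold change. Cacna1b is orange between IF1-TG and IF1-KO, Cacna1g is purple between IF1-TG and CRL and Cacna1e is purple between IF1-KO and CRL.

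Taking the brightest probe for each gene, all 8 genes had a higher mean in IF1-TG than in CRL mice, with a median log2 difference of 0.17, the smallest being that of Cacna1d, 0.01. The sign changed in 5 of 20 alternatives for Cacna1d, 3 of 20 for Cacna1h, 1 of 20 for Cacna1i and 1 of 19 for Cacna1c. Over all 21905 gene names the median was -0.0006 and 49.9% were above 0. Against IF1-KO, 5 of 8 were higher in IF1-TG mice with a median of 0.15 (51.3% of all genes), and 4 of 8 were higher in IF1-KO than in CRL mice with a median of 0.01 (48.1%). The comparisons share arrays, and 5 of the 6 genes with 2 probes had a pair that differed in sign in at least 1 comparison. Counting all 14 probes, 11 were higher in IF1-TG than in CRL mice, and the arrays did not overlap on 4 of them, all higher, where 12.3% of all probes did not overlap in either direction. Between IF1-TG and IF1-KO the arrays did not overlap on 1 of 14 (13.7% of all probes) and between IF1-KO and CRL on 2 of 14 (8.05%).

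Markers of other cells and regions were set beside the alpha1 genes. Between IF1-TG and IF1-KO, the comparison of the Cacna1b call, the Tcf7l2 probe above was higher by 1.34 (limma, unadjusted P = 0.0078) and the dimmer probe of Aqp4, an astrocyte water channel, by 0.79 (unadjusted P = 0.00249), both also past the thresholds with each array left out. The brighter probes of Tcf7l2 and Aqp4 gave 0.06 and 0.40 (limma, unadjusted P = 0.727 and 0.0778). The 6 astrocyte markers had a median of 0.08 and the 6 kept thalamus markers one of 0.21, each with 5 above 0. The myelin genes Cnp and Mal were at 0.49 and 0.58 (limma, unadjusted P = 0.0055 and 0.0179), short of the fold threshold, and the 8 oligodendrocyte markers had a median of 0.26 with 5 above 0. Between IF1-TG and CRL the values were 0.53 for that Aqp4 probe (limma, unadjusted P = 0.0212) and 0.45 for Cnp (unadjusted P = 0.00888), with an oligodendrocyte median of -0.01. The brighter Aqp4 probe gave 0.28 (limma, unadjusted P = 0.197), and the astrocyte median was -0.005 with 3 of 6 above 0.

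In the comparison of IF1-TG with CRL mice the striatum and interneuron markers had negative medians. Of 5 striatum markers 0 were above 0, with a median of -0.37, and Adora2a was lower by -0.96 (limma, unadjusted P = 0.0476, adjusted P = 0.581), a call that held with 3 of the 9 arrays left out in turn and was -0.42 without CRL replicate 3. Of 7 interneuron markers 2 were above 0, with a median of -0.25, and Pvalb was lower by -0.65 on the dimmer of its probes, against 0.09 on the brighter (limma, unadjusted P = 0.0402, adjusted P = 0.571), a call that held with 2 of the 9 left out and was -0.40 without IF1-TG replicate 2. The 5 choroid plexus markers were all above 0, with a median of 0.40 and none past the thresholds. Between IF1-KO and CRL mice 0 of 5 striatum markers were above 0 as well, with a median of -0.41. Adora2a was lower there by -1.16 (limma, unadjusted P = 0.0221), a call lost only without IF1-KO replicate 3 (-1.08). In that comparison the interneuron median was -0.16 with 3 of 7 above 0, and the choroid plexus median was -0.49 with 0 of 5 above 0. The part of these markers in the alpha1 differences was not tested.

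The genotype means on the brightest probes ran, from low to high, in the order IF1-KO, CRL, IF1-TG for Cacna1a, Cacna1b, Cacna1h and Cacna1i, in the order CRL, IF1-TG, IF1-KO for Cacna1c, Cacna1d and Cacna1e, and in the order CRL, IF1-KO, IF1-TG for Cacna1g. IF1-TG was the highest genotype on the brightest probe of Cacna1a, Cacna1b, Cacna1g, Cacna1h and Cacna1i, IF1-KO was the highest on that of Cacna1c, Cacna1d and Cacna1e, and CRL was not the highest on any. For every pair of neighbours in these orders the 95% interval of the difference included 0, and the lowest and highest genotypes had an interval above 0 for Cacna1b (IF1-KO, CRL, IF1-TG), whose signal was not well above background on 3 of the arrays, and for Cacna1e (CRL, IF1-TG, IF1-KO).

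**Figure D4:**
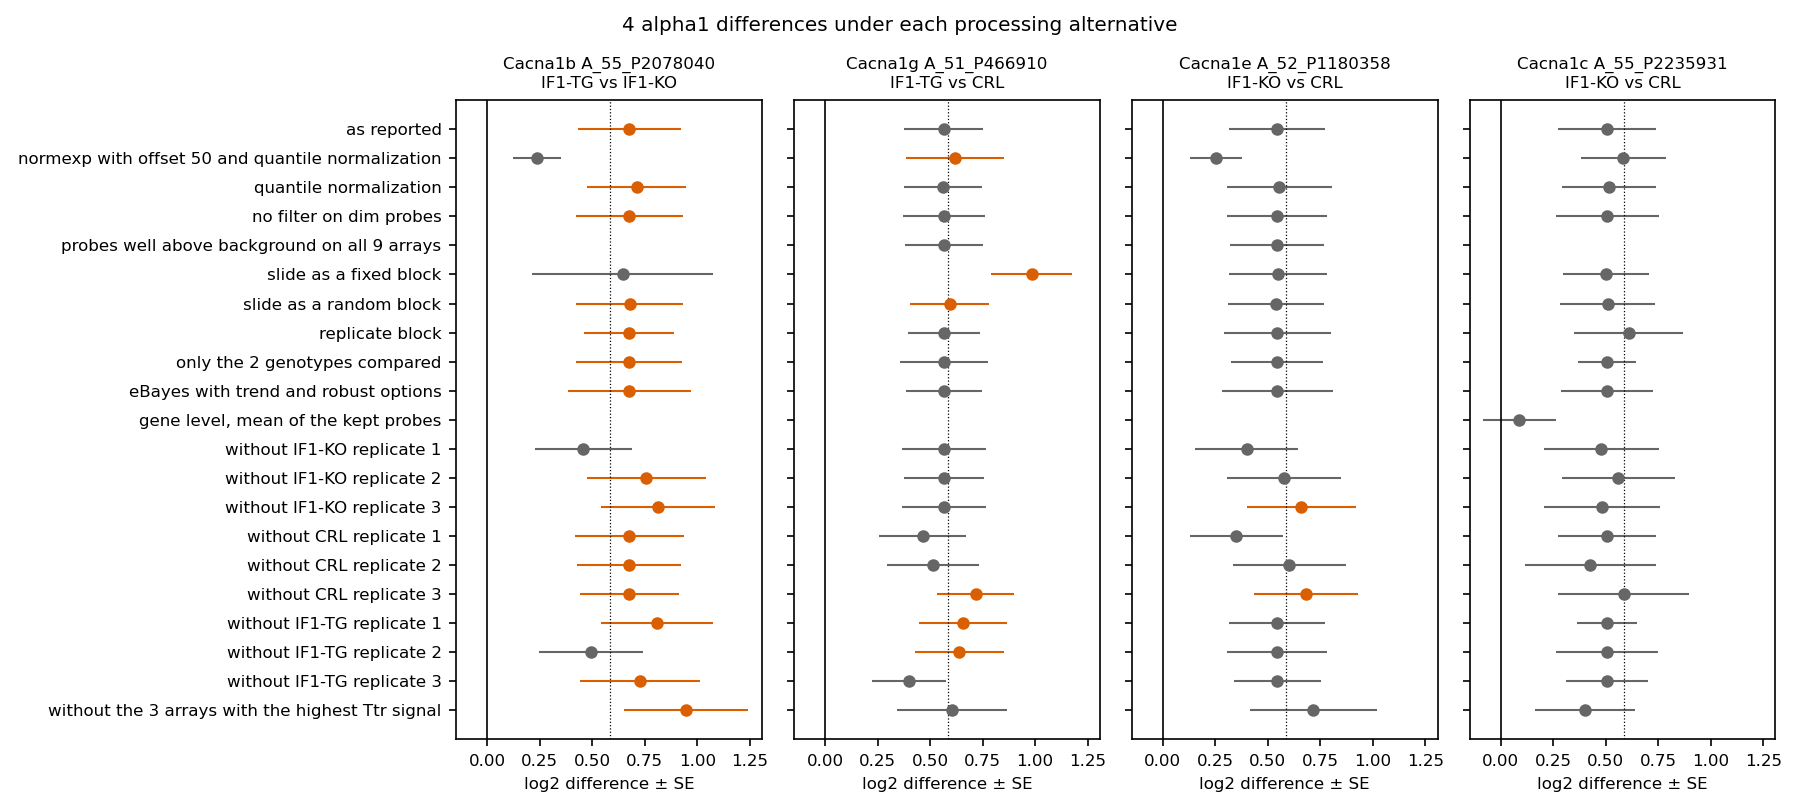
Log2 difference with its SE (x axis) of 4 alpha1 probes under each processing alternative (y axis). The dotted line is the 1.5-fold threshold, orange points passed both thresholds, and a missing point means that the alternative has no value for that probe. All values are above 0, and which of them passed changed with single arrays, with the slide block and with normexp combined with quantile normalization.

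Alpha1 subunits reach the membrane together with auxiliary subunits: beta subunits (Cacnb genes) bind them inside the cell, alpha2delta subunits (Cacna2d genes) assist trafficking outside it, and most gamma genes (Cacng) serve AMPA receptors instead. Of 16 auxiliary genes, 15 were kept and 0 passed in any comparison, where 4.70%, 5.59% and 1.34% of all genes passed between IF1-TG and IF1-KO, IF1-TG and CRL, and IF1-KO and CRL. With an unadjusted P value below 0.05 from limma there were 4, 2 and 1 of 17 auxiliary probes, where 7.12%, 8.52% and 2.57% of all probes had one. The brightest probes ranged from -0.39 to 0.62, -0.47 to 0.27 and -0.70 to 0.13 in the 3 comparisons, with medians of 0.12, 0.06 and -0.06.

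The lowest P value was that of Cacnb4, a beta subunit of P/Q-type channels, higher in IF1-TG than in the IF1-KO mice by 0.49 ± 0.12 without overlap (limma, unadjusted P = 0.00321, adjusted P = 0.66). Cacnb2 was lower in IF1-TG than in CRL mice by -0.47 ± 0.14 on one probe (limma, unadjusted P = 0.00929, adjusted P = 0.478) and 0.24 ± 0.31 on the other. Cacna2d2 reached 0.57 ± 0.24 between IF1-TG and IF1-KO (limma, unadjusted P = 0.0449, adjusted P = 0.698). All 3 stayed under the fold threshold.

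**Figure D5:**
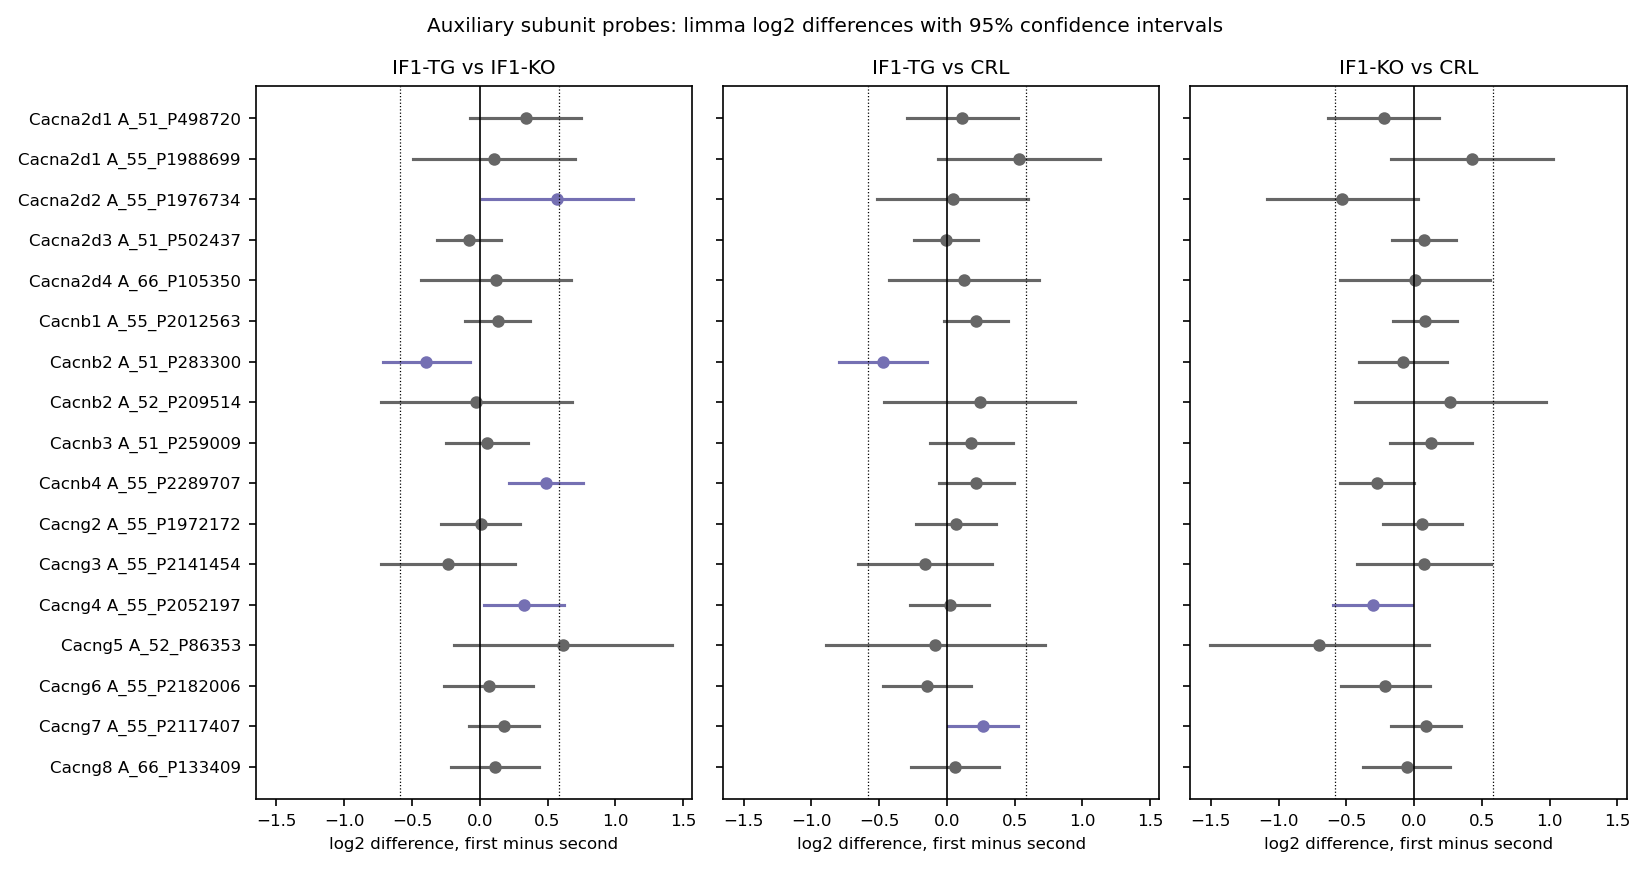
Log2 difference (x axis) with its limma 95% confidence interval for each kept auxiliary subunit probe (y axis) in the 3 comparisons, first genotype minus second, with the 1.5-fold threshold dotted and purple marking an unadjusted P value below 0.05. None of the 17 probes passed both thresholds, and Cacnb4 has an interval above 0 between IF1-TG and IF1-KO.

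Among 24 partners and regulators of the channels, 2 genes had a probe past the thresholds between IF1-TG and CRL, where 5.59% of all genes had one, so the count is near the background, and 0 had one in the other comparisons. In both the probe was higher in IF1-TG mice and was the dimmer of 2, and the brighter did not pass. Rims1, an active zone scaffold that binds calcium channels, differed by 0.74 ± 0.23 on that probe (limma, unadjusted P = 0.0107, adjusted P = 0.488) and by 0.25 ± 0.15 on the brighter one, and no longer passed without IF1-TG replicate 3 (0.51). Gnao1, a G protein subunit through which receptors inhibit N- and P/Q-type channels, differed by 0.61 ± 0.24 (limma, unadjusted P = 0.0309, adjusted P = 0.552) and by 0.38 ± 0.22 on the brighter one, and passed with 5 of the 9 arrays left out in turn (0.43 without CRL replicate 3). Partner genes had a median of 0.12 in that comparison. Of 11 calcium activated channel and calcium release genes 10 were kept and 0 passed, with medians of 0.22, 0.07 and -0.11 in the 3 comparisons. Of the alpha1 genes of muscle and retina, Cacna1s was kept and did not pass, and Cacna1f was not kept.

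The genes whose pattern over the 9 arrays was most like the mean of the standardized brightest alpha1 probes were Pde6c (Pearson r = 0.96), Dalrd3 (0.96), Ldhal6b (0.95), Tuba1a (0.95) and Pom121 (0.94). These are the highest of 20727 probes with a gene symbol and values on all 9 arrays, which share depth, scaling and slide with the alpha1 probes, and they are given as a description.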

How the data were processed

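The authors deposited Agilent Feature Extraction 10.7.3.1 spot intensities of 9 arrays, background subtracted within each array and not normalized between arrays, with marks for spots well above background, saturated or outlying. Probe positions in the deposited annotation are on mm9. Processed intensity was taken to log2 and the array's 75th percentile was subtracted, without control and outlier spots, and spots of a probe were averaged. No spot was saturated. Replicates of a genotype correlated at 0.983 to 0.992. Precision is limited by the number of arrays. All kept probes and all 9 arrays entered limma 3.58.1 (R 4.3.3, lmFit and eBayes) with genotype. The thresholds are those of the study's methods. Levels, medians and counts above 0 of a list use the brightest kept probe of each gene, and a list gene counted as passed when any of its kept probes did. By rule the genes named are the alpha1 genes, Atpif1, channel list genes past the thresholds and the 5 most alike probes, with auxiliary genes given by range and cell type markers by list. Cacnb4, Cacnb2, Cacna2d2, Ttr and the single cell type markers were named after their values were seen. The members and lists were chosen with earlier results of these data known, including the Cacna1b call. The steps were tested on simulated data. The alternatives were normexp (offset 50) with quantile normalization, quantile normalization, no filter, a filter on all 9 arrays, a block (slide, fixed or random, or replicate), 2 genotypes only, trend and robust options, gene means of centred probes, and each array left out. Leaving out the 3 arrays with the highest Ttr signal was added after seeing the data.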

Additional observations from a re-analysis of the deposited data

How the results depend on the processing

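Of 810 values of alpha1 probes recomputed under the alternatives, 54 changed sign, all of them differences that were not called. The Cacna1b difference between IF1-TG and IF1-KO kept its sign and passed in 14 of 18 alternatives (0.24 to 0.95, adjusted P from 0.404 to 1). The number of alpha1 probes called between IF1-TG and IF1-KO, 1 as reported, was 0 with normexp and quantile normalization and 0 with only probes well above background on all 9 arrays, where the Cacna1b probe was not tested, 2 with slide as a fixed block (a Cacna1c and a Cacna1g probe), and 0 to 1 with an array left out, 0 when this was replicate 1 of IF1-KO or replicate 2 of IF1-TG. Between IF1-TG and CRL, 0 as reported, it was 1 with normexp and quantile normalization, 3 with slide as a fixed block, 1 with slide as a random block, 1 without the 3 arrays with the highest Ttr signal and 0 to 2 with an array left out. These were Cacna1g with normexp and with either slide block, Cacna1b without the Ttr arrays, and Cacna1c and Cacna1h in addition under the fixed block. With an array left out they were Cacna1g when replicate 3 of CRL or either of the first 2 IF1-TG arrays was absent, Cacna1b without IF1-TG replicate 1 and Cacna1e without IF1-TG replicate 3. Between IF1-KO and CRL, 0 as reported, it was 0 to 1 with an array left out, Cacna1e without IF1-KO replicate 3 or CRL replicate 3. For these results the cause was not tested.

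Auxiliary genes past the thresholds, 0 as reported in each comparison, numbered 1 in both IF1-TG comparisons without a filter, and 1 between IF1-TG and CRL with slide as a fixed block or without the Ttr arrays, 1 between IF1-KO and CRL with 2 genotypes only, and 0 to 2, 0 to 1 and 0 to 2 with an array left out. Cacna1f passed without a filter, 1 gene of its list between IF1-TG and CRL. Partner genes numbered 2 between IF1-TG and IF1-KO and 4 between IF1-TG and CRL with slide as a fixed block, 0 in the latter with normexp or gene means, 1 with 2 genotypes only or without the Ttr arrays, and 0 to 2, 1 to 3 and 0 to 2 with an array left out. Calcium activated and release genes numbered 0 to 1 in each comparison with an array left out. The Atpif1 difference between IF1-TG and IF1-KO, 0.72 as reported and past the thresholds, no longer passed with normexp (0.58), a fixed slide block (0.39), 2 genotypes only (0.72) or without the Ttr arrays (0.63), and ranged from 0.46 to 1.07 with an array left out, where it passed in 4 of 9 (not without IF1-KO replicate 2 or 3 or without any IF1-TG array). Between IF1-KO and CRL it was -0.91 to -0.30 with an array left out and passed without IF1-KO replicate 1.

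Over all probes, calls in the order IF1-TG against IF1-KO, IF1-TG against CRL and IF1-KO against CRL were 1056, 1250 and 298 as reported, 562, 568 and 163 with normexp, 3187, 4670 and 734 without a filter, and 1438, 2245 and 239 with a fixed slide block. With only probes well above background on all 9 arrays IF1-KO against CRL gave 179. With an array left out they were 617 to 1757, 989 to 1961 and 182 to 1019. The share of higher calls, in the same order, was 45.7%, 50.2% and 59.7% as reported, 76.7%, 82.1% and 48% without a filter, 60.6%, 63.9% and 70.4% with only probes well above background on all 9 arrays, and 82.8% with normexp between IF1-KO and CRL. Without IF1-TG replicate 3 it was 23.4% and 26% in the IF1-TG comparisons, and without IF1-KO replicate 1 or 3 it was 45.2% and 45.9% between IF1-KO and CRL. Replicate numbers did not pair the samples: deviations from the genotype means correlated between -0.17 and 0.12 for same-numbered arrays, and with a replicate block 1 alpha1 probe passed between IF1-TG and IF1-KO (Cacna1b 0.68, adjusted P = 0.734) and 0 in the others. Slide 1 held IF1-TG arrays only, and there its effect and that of genotype cannot be told apart, so with the fixed slide block the IF1-TG comparisons rest on IF1-TG replicate 3.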

Other observations

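A further probe of the array carries the clone name MNCb-1209, a RefSeq synonym of Cacna1h, under another gene name. It was well above background on 1 of 9 arrays and was not tested. The signal of Ttr, the transthyretin gene of choroid plexus, was 1.98, 0.26 and 6.44 on the IF1-KO arrays, 2.58, 6.74 and 0.78 on the CRL arrays and 7.27, 3.12 and 1.91 on the IF1-TG arrays, so 1 mouse of each genotype carried far more of this tissue's transcript than the others. Without those 3 arrays the Cacna1b difference between IF1-TG and IF1-KO was 0.95 (limma, unadjusted P = 0.0194), an alternative chosen after seeing the data.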
